A study of Mus musculus with 12 samples.

Results

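The genes of 3 enzyme families that attach a water-soluble group to drugs, hormones and waste products were followed in mouse liver: the glutathione S-transferases, the UDP-glucuronosyltransferases and the sulfotransferases. They were picked by symbol alone (Gst and a class letter, Mgst, Ugt1 to Ugt3, and Sult), with no measured value used, which gave 59 of the 16821 genes listed. There were 21 Gst, 3 Mgst, 20 Ugt and 15 Sult genes. Liver RNA came from 12 adult male C57BL/6J mice of the same strain and sex, of which 6 were sedentary controls without access to a treadmill (Con) and 6 ran at moderate intensity for 6 weeks (Exe, chronic exercise). Livers were rinsed with saline through the heart, and no more than 24 h lay between the last run and their removal. The values deposited are FPKM, that is fragments scaled to transcript length and to the number mapped in the library, so levels of different genes can be set side by side per length.

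Conjugation is often called the second phase of detoxification. Glutathione S-transferases join glutathione to reactive carbon atoms, and several also reduce peroxides. UDP-glucuronosyltransferases sit in the endoplasmic reticulum and transfer glucuronic acid from UDP-glucuronate to bilirubin, steroids, bile acids and phenols. Sulfotransferases work in the cytosol and transfer sulfate from the donor PAPS to phenols, steroids, catecholamines and bile acids. Hepatocytes carry much of this work in the body, and the products leave through transporters into bile and blood.

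The 12 libraries were alike in depth and ranking. Summed FPKM ran from 735200 to 820107 per library, and Spearman's rho across genes from 0.981 to 0.987 over 66 pairs. Reads per mouse are unknown, and the relative depth estimated from 36 genes with FPKM in whole steps lay between 0.987 and 1.02 (largest standard error 0.0048). The tissue label was met by its markers, since all 10 hepatocyte markers were above 1 FPKM and albumin (Alb) was between 29517 and 48015 FPKM in every mouse. Markers of kidney did not pass 0.09 FPKM in sum in any mouse. In a bulk sample, fewer cells of a type and less RNA per cell cannot be told apart.

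The 3 genes of the pi class of glutathione S-transferases, which lie next to each other, held both the highest and some of the lower values of the family, and their starts are shown here for that reason. The 120 bases before the annotated start are RefSeq sequence of build GRCm38.p6, all on the minus strand, at chr19:4037913-4038032 for Gstp1, chr19:4042222-4042341 for Gstp2 and chr19:4059448-4059567 for Gstp3. The capitals mark the letters TATAA, read on the gene's strand.
Gstp1: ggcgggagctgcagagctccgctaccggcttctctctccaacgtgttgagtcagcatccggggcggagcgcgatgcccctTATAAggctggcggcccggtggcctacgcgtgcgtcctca
Gstp2: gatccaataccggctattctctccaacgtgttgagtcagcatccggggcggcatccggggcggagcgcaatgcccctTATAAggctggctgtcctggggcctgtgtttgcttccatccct
Gstp3: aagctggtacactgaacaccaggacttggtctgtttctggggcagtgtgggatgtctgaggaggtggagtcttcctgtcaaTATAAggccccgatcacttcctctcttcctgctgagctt
In a gapped alignment, 88 of the 120 bases (73.3%) of Gstp1 were the same in Gstp2, with a longest shared run of 34 bases, and 62 (51.7%) were the same in Gstp3, with a longest run of 8 bases. TATAA was found on the gene's strand in the 250 bases upstream of 17 of the 63 start sites of the conjugation genes (27.0%), beside 16% of the 32851 start sites in the table.

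A second set of starts is shown because it holds letters that are rare elsewhere. The letters GTTAATNAT on either strand, part of the sequence bound by the hepatocyte factor HNF1, were found in the 250 bases upstream of 4 of the 63 start sites (6.35%), and in 0.737% of all start sites. The 4 genes were Ugt1a1, Ugt1a9, Ugt1a10 and Sult1d1. The windows are chr1:88211890-88211948, chr1:88070660-88070718 and chr1:88055312-88055370 on the plus strand for the 3 Ugt1a genes and chr5:87569052-87569110 on the minus strand for Sult1d1, all of GRCm38.p6, with the match in capitals.
Ugt1a1: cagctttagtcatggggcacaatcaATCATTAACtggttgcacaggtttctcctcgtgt
Ugt1a9: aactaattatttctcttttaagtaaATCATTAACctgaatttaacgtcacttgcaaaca
Ugt1a10: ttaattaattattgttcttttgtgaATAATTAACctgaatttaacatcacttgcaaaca
Sult1d1: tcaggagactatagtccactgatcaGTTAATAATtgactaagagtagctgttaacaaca
The windows of Ugt1a9 and Ugt1a10 are largely alike, so they are not separate instances. The levels of these 4 genes ran from below 1 FPKM for Ugt1a10, through 31.7 ± 4.56 FPKM (SD, n = 6 Con mice) for Ugt1a9 and 40.0 ± 6.44 for Sult1d1, to 198 ± 20.9 for Ugt1a1, so the genes with the match differed widely in level.

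The last pair shown holds the core of the antioxidant response element, TGACNNNGC on either strand, upstream of the highest alpha-class gene and of the highest Mgst gene. The windows are chr1:21240439-21240497 for Gsta3 and chr6:138140446-138140504 for Mgst1, both on the plus strand of GRCm38.p6.
Gsta3: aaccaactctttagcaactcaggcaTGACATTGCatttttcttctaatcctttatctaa
Mgst1: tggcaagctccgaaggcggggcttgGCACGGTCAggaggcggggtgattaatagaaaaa
These letters were found at 4 of the 63 start sites (6.35%; Gsta3, Gstm5, Gstm7 and Mgst1) and at 10.2% of all start sites. The letters GCGTG on either strand, the core that the aryl hydrocarbon receptor binds, were found at 12 of the 63 (19.0%) and at 28.2% of all. A match describes the letters only, and start sites of 8 of the 59 genes were not in the table.

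Of the glutathione S-transferases, Gstp1 had by far the highest level, and it ranked 19 among all genes of the liver. Its FPKM was 6830, 6507, 6919, 8878, 7718 and 7770 in Con 1 to Con 6 and 6897, 4210, 6792, 8655, 5410 and 7500 in Exe 1 to Exe 6. Exe 2 and Exe 5 were below every Con mouse and the other 4 Exe mice lay within the Con range. Gstp1 alone made up 66.8% of the summed FPKM of the 21 Gst genes. Its neighbours Gstp2 (32.0 ± 7.93 FPKM in Con, SD, n = 6) and Gstp3 (20.7 ± 3.0) were far lower. Because Gstp1 and Gstp2 are close copies, a small share of Gstp1 reads assigned to Gstp2 would be a large part of the value of Gstp2.

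The mu class, which conjugates epoxides and other electrophiles, was led by Gstm1 and the alpha class by Gsta3. Gstm1 had a median of 1024 FPKM in Con mice (647 to 1228) and 1070 in Exe mice (997 to 1481). Con 1 and Con 2 were below every other mouse. Gsta3, known in mice for the conjugation of the aflatoxin epoxide, was next with a median of 877 in Con mice (769 to 1031). The other 6 mu-class genes had means from 10.6 to 89.2 FPKM in the 12 mice, and Gsta4, which acts on aldehydes from lipid peroxidation, Gsta2 and Gsta1 had means of 69.5, 49.8 and 6.52.

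The remaining classes were represented by a few well expressed genes each. Gstz1, the isomerase of tyrosine breakdown, had a median of 363 FPKM in Con mice (354 to 393) and 396 in Exe mice (341 to 411). Gstt1 and Gstt2 of the theta class, known for small halogenated substrates, had means of 259 and 49.0 over the 12 mice. Gstk1, the mitochondrial and peroxisomal enzyme, had 118, and Gsto1, which reduces dehydroascorbate, had 97.9. Its neighbour Gsto2 did not pass 0.17 FPKM in any mouse.

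Of the membrane-bound enzymes, Mgst1 had the second highest level of all 59 genes and the least spread. Its FPKM ran from 3745 to 4339 in the Con group and from 3845 to 4186 in the Exe group, and its coefficient of variation within groups was 4.42%. Mgst3 was between 5.28 and 13.8 FPKM, and Mgst2, known for making leukotrienes in other cells, did not pass 0.37 in any mouse. Mgst1 ranked 29 among all genes.

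The UDP-glucuronosyltransferases were led by the Ugt2b genes, which conjugate steroids, bile acids and drugs. Ugt2b5 had a median of 641 FPKM in Con mice (503 to 783) and 594 in Exe mice (501 to 657), Ugt2b36 had 361 (309 to 426) and 330.4 (299 to 386), and Ugt2b1 had 263 (241 to 318) and 249 (231 to 331). Together the 7 Ugt2b genes summed to 1286 to 1807 FPKM in the Con group and to 1241 to 1559 in the Exe group. Ugt1a1, the enzyme that conjugates bilirubin, was highest of the Ugt1a genes with a median of 203 in Con mice (171 to 219). Ugt3a2, of a small class that uses other UDP sugars, was the steadiest Ugt gene, between 167 and 195 FPKM in all 12 mice.

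The 9 Ugt1a genes are first exons spliced to the same downstream exons, so their values depend on how reads in the shared part were divided. Ugt1a6b, which acts on planar phenols, had a mean of 151 FPKM, Ugt1a9 of 37.1 and Ugt1a6a of 34.5. Ugt1a2, Ugt1a7c, Ugt1a8 and Ugt1a10 did not pass the filter of 1 FPKM in at least 6 of the 12 mice. The Ugt2b genes and the Gstm genes are likewise close copies lying side by side. In all, 46 of the 59 genes lay in 11 runs of neighbours, at most 3 protein-coding genes apart, and the largest run held 12 genes and joined the Ugt2b and Ugt2a genes with Sult1b1, Sult1d1 and Sult1e1.

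The sulfotransferases had the most genes that were close to absent. Sult2a8, the sulfotransferase of bile acids in mouse liver, had a median of 399 FPKM in Con mice (327 to 427) and 389 in Exe mice (293 to 420), and made up 59.1% of the family's summed FPKM. Sult1a1, which acts on phenols, and Sult1d1, which acts on catecholamines, followed with means of 191 and 41.7 over the 12 mice. Sult5a1, Sult1b1, Sult1c2 and Sult2a7 were between 0.69 and 22.5 FPKM in every mouse. The other 8 Sult genes did not pass the filter, and of these only Sult1e1, the estrogen sulfotransferase, passed 0.21 FPKM in any mouse (1.09 in Exe 3). Sult2a1 and Sult2a2, which sulfate hydroxysteroids and are known for high levels in livers of female mice, were listed at 0 in 10 and 8 of these 12 male mice.

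**Figure D1:**
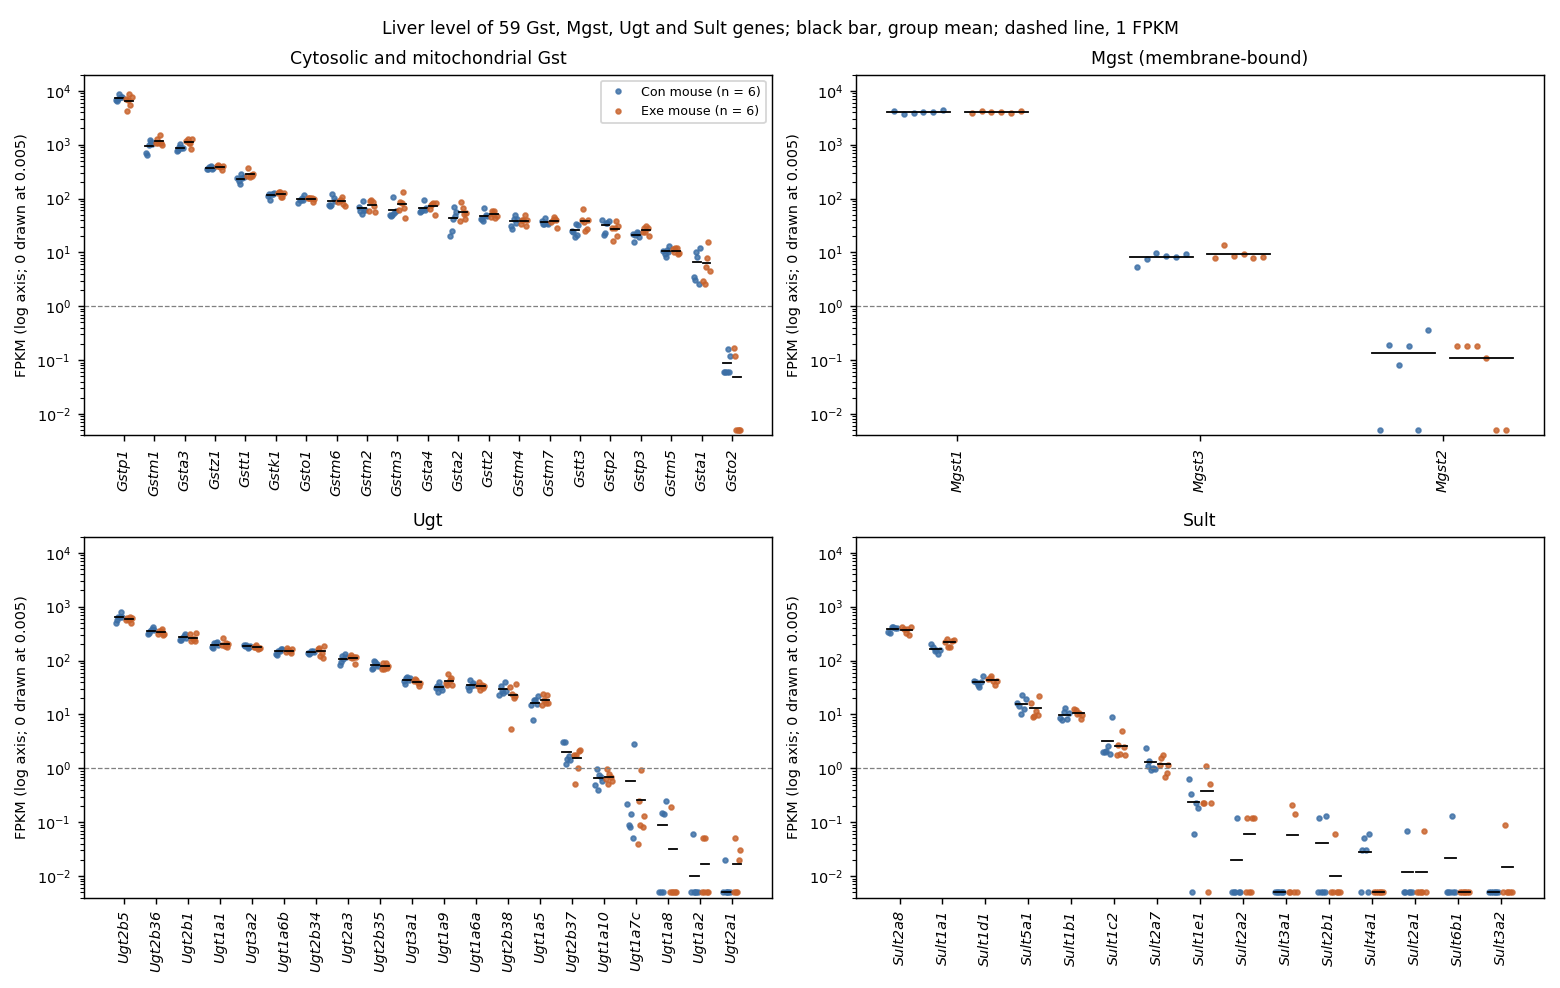
FPKM of the 59 conjugation genes on a log axis, in 4 panels by family and ordered by mean level. Each point is a mouse (blue Con, orange Exe, n = 6 each), black bars are group means, 0 is drawn at 0.005 and the dashed line marks 1 FPKM. Gstp1 and Mgst1 stand above all others, and 8 of the 15 Sult genes lie mostly under the line.

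Whether 6 weeks of running changed these genes was the question of the comparison between groups. No conjugation gene was called, and the 6 genes with the lowest p all had higher means in Exe mice: Ugt1a9, Sult1a1, Gsta3, Gstp3, Gstt3 and Gstt1, with ratios of the group mean FPKM from 1.21 to 1.49. Log2(FPKM + 1) was compared with limma over the 10241 genes with at least 1 FPKM in at least 6 of the 12 mice, a filter that 44 of the 59 genes passed (20 Gst, 2 Mgst, 15 Ugt and 7 Sult). On this scale the change of a gene with low FPKM is understated. At an adjusted p of 0.05 (limma, Benjamini-Hochberg), 0 of the 44 and 0.0% of all genes tested passed. With DESeq, which works on counts, the paper reports genes past its thresholds in these livers, both higher and lower in Exe mice. The 0.0% therefore describes limma on FPKM and does not show that no liver gene changed. At an unadjusted p of 0.05, 6 of the 44 (13.6%) were higher in Exe mice, beside 4.27% of all genes, and 0 were lower, beside 1.94% of all genes. The groups overlapped in all 44, and 0.254% of all genes had groups that did not overlap.

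The median log2 difference over the 44 genes was 0.05, beside 0.02 over all genes, and 28 of the 44 (63.6%) had a difference above 0, beside 57.5% of all genes. The difference was above 0 for 17 of the 20 Gst genes, all 7 Gstm and all 3 Gstt genes included, and for 3 of the 7 Sult genes. It was below 0 for 6 of the 7 Ugt2b genes and for both Ugt3a genes, and no difference between classes was tested. With quantile normalization between mice these counts became 15 of 20 Gst, 6 of 7 Gstm and 7 of 7 Ugt2b genes, and the unadjusted calls became 6 higher and 1 lower, the latter being Ugt3a1. Over all 10241 genes, 351 were higher and 267 lower in Exe mice under that setting. The share of unadjusted calls that were higher in Exe mice went from 68.7% to 56.8%.

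**Figure D2:**
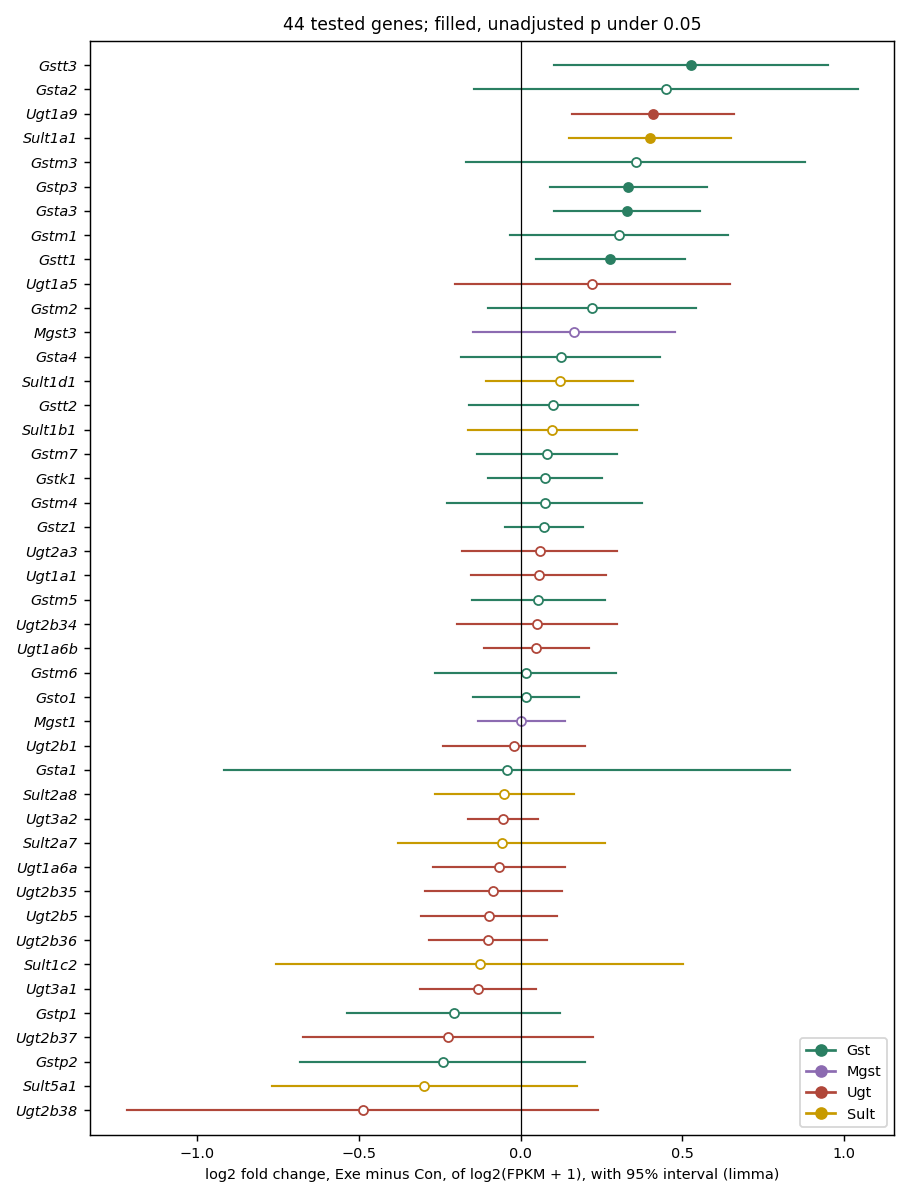
Log2 fold change, Exe minus Con, of log2(FPKM + 1) for the 44 tested genes with its 95% interval from limma, coloured by family. Filled points mark an unadjusted p under 0.05. All 6 filled points lie above 0, between 0.28 and 0.53, and the Ugt2b genes lie around or below 0.

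Ugt1a9, which glucuronidates phenols, had the smallest p of the 44. Its FPKM was 31.1, 33.3, 26.1, 39.4, 31.7 and 28.4 in Con 1 to Con 6 and 39.0, 35.1, 55.2, 44.1, 46.8 and 35.6 in Exe 1 to Exe 6. All 6 Exe mice were above the Con median, and Con 4 alone among the Con mice reached into the Exe range. The log2 difference was 0.41 (SE 0.12, adjusted p = 0.756 by limma with Benjamini-Hochberg adjustment, 0.456 to 0.999 over the alternatives).

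Sult1a1 differed by a similar amount. Its FPKM was 206, 181, 150, 158, 132 and 158 in Con 1 to Con 6 and 224, 255, 176, 179, 227 and 242 in Exe 1 to Exe 6. Con 1 and Con 2 lay within the Exe range and the other 4 Con mice below it. The log2 difference was 0.40 (SE 0.12, adjusted p = 0.756 by limma with Benjamini-Hochberg adjustment, 0.509 to 0.999 over the alternatives). The other genes of the Sult1 class were Sult1d1 (log2 difference 0.12, SE 0.11), Sult1b1 (0.10, SE 0.12) and Sult1c2 (-0.13, SE 0.29), so only Sult1a1 had an interval away from 0.

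Among the alpha-class enzymes, Gsta3 had a mean of 874 ± 92.8 FPKM in Con mice and 1104 ± 164 in Exe mice (SD, n = 6 each). The Con mice had 769, 792, 897, 1031, 882 and 873 FPKM and the Exe mice 1146, 1246, 1062, 1066, 824 and 1282. Apart from Exe 5, which was within the Con range, each Exe value was over the whole Con range. The log2 difference was 0.33 (SE 0.11, adjusted p = 0.793 by limma with Benjamini-Hochberg adjustment, 0.333 to 0.999 over the alternatives). Gsta2 (0.45, SE 0.28) and Gsta4 (0.12, SE 0.14) had differences of the same sign and Gsta1 one of the other sign (-0.04, SE 0.41), all with intervals that included 0. Without Con 1 the difference of Gsta2 was 0.26.

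The theta class had 2 of its 3 genes among the 6. Gstt3 had 24.8, 23.5, 19.6, 33.3, 21.0 and 32.7 FPKM in Con mice and 39.7, 62.6, 37.1, 24.8, 27.7 and 39.5 in Exe mice, with Exe 2 the highest. Gstt1 had 238, 209, 189, 279, 238 and 252 in Con mice and 263, 371, 254, 274, 256 and 288 in Exe mice, again with Exe 2 the highest. The log2 difference was 0.53 (SE 0.20) for Gstt3 and 0.28 (SE 0.11) for Gstt1, each with an adjusted p of 0.793 by limma with Benjamini-Hochberg adjustment (0.509 to 0.999 and 0.534 to 0.999 over the alternatives). Without Exe 2 these differences were 0.38 and 0.20, and both genes stayed past the unadjusted threshold. Gstt2, the third of these neighbours, had a difference of 0.10 (SE 0.12).

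The pi class was split. Gstp3 had 21.8, 15.5, 20.7, 24.0, 22.8 and 19.3 FPKM in Con mice and 24.3, 28.8, 24.2, 31.4, 28.8 and 20.5 in Exe mice, and 5 of the 6 Exe values lay over the whole Con range. Its log2 difference was 0.33 (SE 0.11, adjusted p = 0.793 by limma with Benjamini-Hochberg adjustment, 0.534 to 0.999 over the alternatives). Gstp1 and Gstp2 had differences of -0.21 (SE 0.15) and -0.24 (SE 0.20), the other sign, with intervals that included 0. Without Exe 2 the difference of Gstp1 was -0.09.

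Over the 21 alternative settings, Ugt1a9, Sult1a1, Gsta3, Gstp3 and Gstt3 were past the unadjusted threshold in all 21, and Gstt1 in 20. Gstt1 missed it without Con 3 (log2 difference 0.22, unadjusted p = 0.0539 by limma). The count of 6 was 10 without Con 4, when Gstm1, Gstm2, Gstm3 and Gsta2 joined. Con 4 had the highest value of all 12 mice in 8 of the 44 genes, and its part in the count was not tested. With Con 1 and Exe 5 left out, which had the highest acute-phase levels, the count was again 6, all higher. No share over all genes is set beside the counts of these alternatives.

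**Figure D3:**
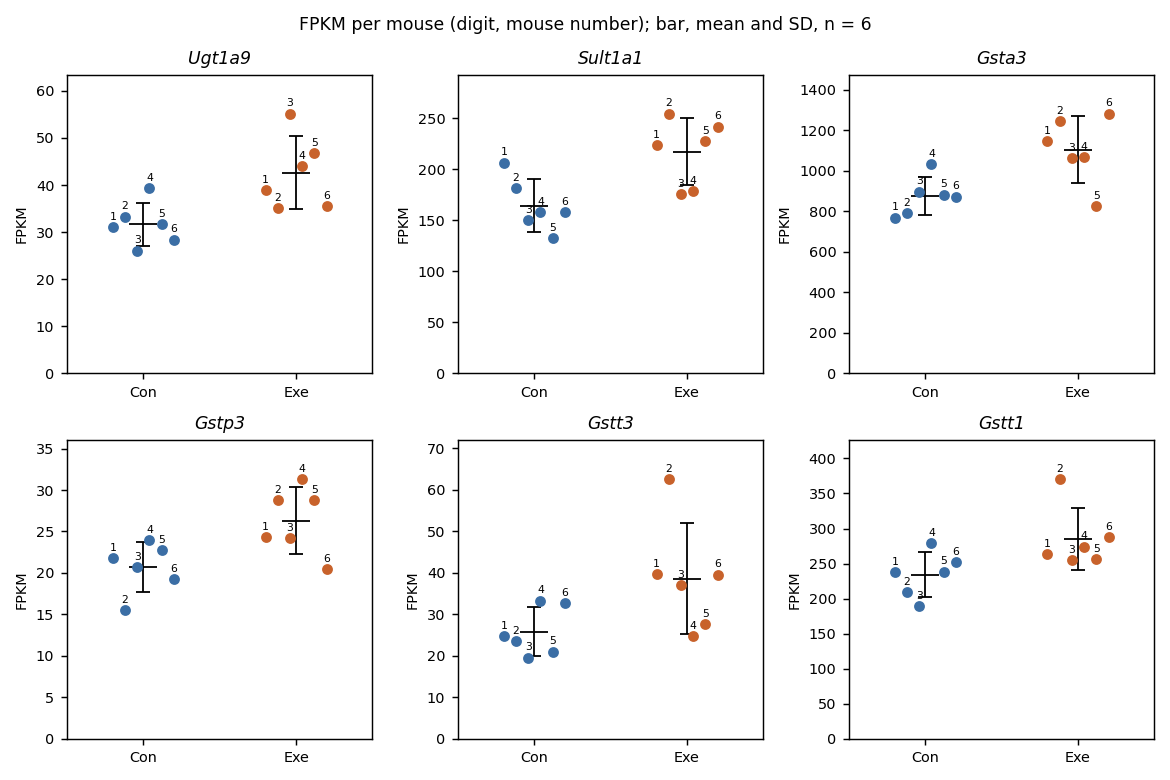
FPKM per mouse of the 6 genes with an unadjusted p under 0.05, on linear axes from 0. Points are mice with their number, crosses and bars are the mean and SD of 6 mice. The groups overlap in each panel, and Exe 2 is the highest mouse for Sult1a1, Gstt3 and Gstt1.

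The other tested Gst, Mgst, Ugt and Sult genes named by rule had intervals that included 0. Gstm1 was higher in Exe mice by 0.30 (SE 0.16) and Gstm2 by 0.22 (SE 0.15). Without Con 2 the difference of Gstm1 was 0.20. Mgst3 was higher by 0.16 (SE 0.15), and by 0.05 without Exe 2 or 0.06 without Con 1. Ugt3a1 was lower by 0.13 (SE 0.08), with all 6 Exe mice below the Con median, and Ugt3a2 by 0.06 (SE 0.05). Ugt2b5, Ugt2b36 and Ugt2b1 were lower by 0.10 (SE 0.10), 0.10 (SE 0.09) and 0.02 (SE 0.10). Con 5 had the highest Ugt2b5 and Ugt2b36 of the 12 mice, and without it their differences were -0.03 and -0.05, while without Con 1 that of Ugt2b5 was -0.16. The 95% interval of Mgst1 was -0.13 to 0.14, and that of Sult2a8 was -0.27 to 0.16, so a difference of 1 on the log2 scale lay outside both.

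Genes that serve the same 3 reactions were counted from 7 lists: glutathione supply, mercapturate formation, UDP-glucuronate supply, PAPS supply, other conjugation enzymes, export of conjugates and the regulators of all these. Of their 105 genes, 87 were tested, and at an unadjusted p of 0.05 there were 4 higher (4.6%) and 2 lower (2.3%) in Exe mice, shares close to the 4.27% and 1.94% of all genes. None passed an adjusted p of 0.05 (limma, Benjamini-Hochberg). Ugdh, which makes UDP-glucuronate, was lower with 95.5 ± 8.6 FPKM in Con mice and 79.8 ± 14.2 in Exe mice (SD, n = 6 each), a log2 difference of -0.27 (SE 0.10). Slc35b1, listed with UDP-glucuronate supply but known as a carrier of ATP into the endoplasmic reticulum, was higher with 40.5 ± 3.4 and 50.0 ± 4.3, a difference of 0.30 (SE 0.07, adjusted p = 0.580 by limma).

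In glutathione supply, Pgd, an NADPH source of the pentose phosphate pathway, was higher by 0.23 (SE 0.09). Of the 12 genes tested there, 9 had differences below 0, beside 42.5% of all genes, with no test of that count. Gclc, the first enzyme of glutathione synthesis, had a difference of -0.17 (SE 0.18). Of the 10 genes of mercapturate formation, Acy3, which removes the acetyl group again, was lower by 0.17 (SE 0.08). As3mt, the arsenic methyltransferase, and Baat, which joins bile acids to taurine, were higher by 0.33 (SE 0.12) and 0.13 (SE 0.05). Of PAPS supply (12 tested), of export (10) and of the regulators (18), 0 genes were past the unadjusted threshold. The smallest p there belonged to Bpnt1, which clears the by-product of sulfation (0.14, SE 0.08), Abcc6, a liver transporter (0.14, SE 0.08), and Nr1i3, the xenobiotic receptor CAR (0.33, SE 0.17).

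The livers also differed in the acute-phase response, the set of secreted proteins that hepatocytes make in inflammation, and the conjugation genes were described along it. The acute-phase level of a mouse was the mean log2(FPKM + 1) of 18 genes. It was 8.87 ± 1.03 in Con mice and 8.51 ± 0.92 in Exe mice (SD, n = 6 each; exact permutation test, two-sided p = 0.513). The highest levels were those of Exe 5 (10.10) and Con 1 (10.07), and the lowest those of Con 4 (7.56), Exe 4 (7.59) and Con 5 (7.65). Markers of other cells differed too. The 10 Kupffer cell markers, all above 1 FPKM, summed to 459 and 558 in Con 1 and Con 2 and to 501 in Exe 5, and to 303 to 394 in the other Con mice and 219.5 to 427 in the other Exe mice, with Exe 2 the lowest. The 10 neutrophil markers summed to 36.1 in Con 1, 56.3 in Exe 3 and 53.4 in Exe 5, and to 10.5 to 22.1 in the others, with Ly6g at most 0.19. The pancreatic acinar markers summed to 33.4 in Exe 5 and 8.56 to 17.0 in the others. Most of the sum in the other mice was Cela1 (7.65 to 16.4 FPKM), which was 9.78 in Exe 5. Amy2a5, Pnlip and Prss2 were 6.6, 2.42 and 1.81 FPKM in Exe 5 and at most 0.63, 0.23 and 0.1 in the others. Ctrb1 was highest in Exe 4 (4.26). The part of all these markers in the slopes was not tested.

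With group and acute-phase level as terms in limma, 0 of the 44 genes passed an adjusted p of 0.05, beside 0.967% of all genes. At an unadjusted p of 0.05, 15 of the 44 (34.1%) were lower where the acute-phase level was higher, beside 10.1% of all genes, and 1 (2.27%), namely Ugt2b37, was higher, beside 6.69% of all genes. The slope was below 0 for 36 of the 44 (81.8%), beside 58.6% of all genes, with a median of -0.10 per unit of acute-phase level and -0.01 over all genes. The 15 were 8 Gst, 6 Ugt and 1 Sult gene. All 7 Gstm genes, all 3 Gstp and all 3 Gstt genes had slopes below 0. Of the 87 tested genes of the pathway lists, 21 were lower and 4 higher at an unadjusted p of 0.05. Lower values at a higher acute-phase level were therefore not limited to the Gst, Ugt and Sult genes. Nnmt, from the list of other conjugation enzymes, had a slope of 0.45 (adjusted p = 0.0484 by limma with Benjamini-Hochberg adjustment). Without Con 1 and Exe 5, 9 of the 44 (20.5%) were lower and 0 higher at the unadjusted threshold, beside 4.93% and 2.94% of all genes under the same setting.

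Ugt2b5 had the smallest p, with a slope of -0.16 (SE 0.03, adjusted p = 0.0533 by limma with Benjamini-Hochberg adjustment). In Con 4 and Con 5, of low acute-phase level, it had 647 and 783 FPKM, and in Con 1 and Exe 5 it had 503 and 501, the lowest of the 12. Over the 12 mice Pearson's r was -0.74 (permutation p = 0.00479) and Spearman's rho -0.71 (permutation p = 0.012). Ugt2b5 was picked by its limma p for the same level in the same mice, so the permutation p add no separate support. Without Con 1 and Exe 5, r was -0.49 (permutation p = 0.137), so the pooled correlation was no longer past 0.05. With group as a term in limma, the slope without that pair was -0.13 (SE 0.05, adjusted p = 0.593 with Benjamini-Hochberg adjustment). Within Con mice r was -0.80 and within Exe mice -0.96 (exact permutation p = 0.0333 and 0.00278).

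For Gstt2 and Gstm6 the pooled correlation stayed past 0.05 without Con 1 and Exe 5, but neither slope did after adjustment in limma. With group as a term, their slopes without the pair were -0.25 (SE 0.07) and -0.27 (SE 0.07). The adjusted p were 0.376 and 0.366 by limma with Benjamini-Hochberg adjustment. For Gstt2 the slope was -0.19 (SE 0.05, adjusted p = 0.0687 by limma with Benjamini-Hochberg adjustment), with r of -0.80 and rho of -0.82 (permutation p = 0.00186 and 0.00172), and r of -0.81 without Con 1 and Exe 5 (permutation p = 0.00556). For Gstm6 the slope was -0.20 (SE 0.05, adjusted p = 0.0642 by limma with Benjamini-Hochberg adjustment), with r and rho both at -0.78 (permutation p = 0.00327 and 0.00428), and r of -0.77 without the pair (permutation p = 0.0125). Gstt2 was 65.7 FPKM in Con 4 and 58.6 and 58.4 in Exe 2 and Exe 4, and between 38.7 and 51.2 in the other 9 mice. Within Con and Exe mice r was -0.82 and -0.75 for Gstt2 (exact permutation p = 0.025 and 0.0667) and -0.93 and -0.58 for Gstm6 (exact permutation p = 0.00972 and 0.225). In all, 10 such relations were computed, and the adjusted values given are those of limma over all genes tested. All 10 genes were picked by their limma p for the same level in the same mice. The permutation p are not corrected for that choice and describe the genes only.

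Ugt2b36 (slope -0.13, SE 0.03) and Gsta4 (-0.21, SE 0.06) had r of -0.67 and -0.75, which went to -0.48 and -0.59 without Con 1 and Exe 5 (permutation p = 0.164 and 0.0752). With group as a term in limma, their slopes without the pair were -0.12 (SE 0.05) and -0.16 (SE 0.08). The adjusted p were 0.602 and 0.666 by limma with Benjamini-Hochberg adjustment. Ugt2b37, a low gene with 0.51 to 3.10 FPKM, had a slope of 0.25 (SE 0.10) and r of 0.62 (permutation p = 0.0305), which was 0.49 without the pair (permutation p = 0.155). The slopes of Gsta1, Sult2a7, Sult1a1 and Ugt3a2, the next in that direction, did not pass the unadjusted threshold. Sult1a1 and Ugt1a9 had slopes of 0.09 (SE 0.06) and 0.00 (SE 0.07), while Gsta3 had one of -0.15 (SE 0.04). With the acute-phase level as a covariate, the exercise difference was 0.43 for Sult1a1, 0.41 for Ugt1a9 and 0.27 for Gsta3. The calls at an unadjusted p of 0.05 were then 6 higher and 3 lower (Ugt2b5, Ugt2b36 and Ugt3a1). No share over all genes is set beside this count, so it is not shown to be an excess.

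**Figure D4:**
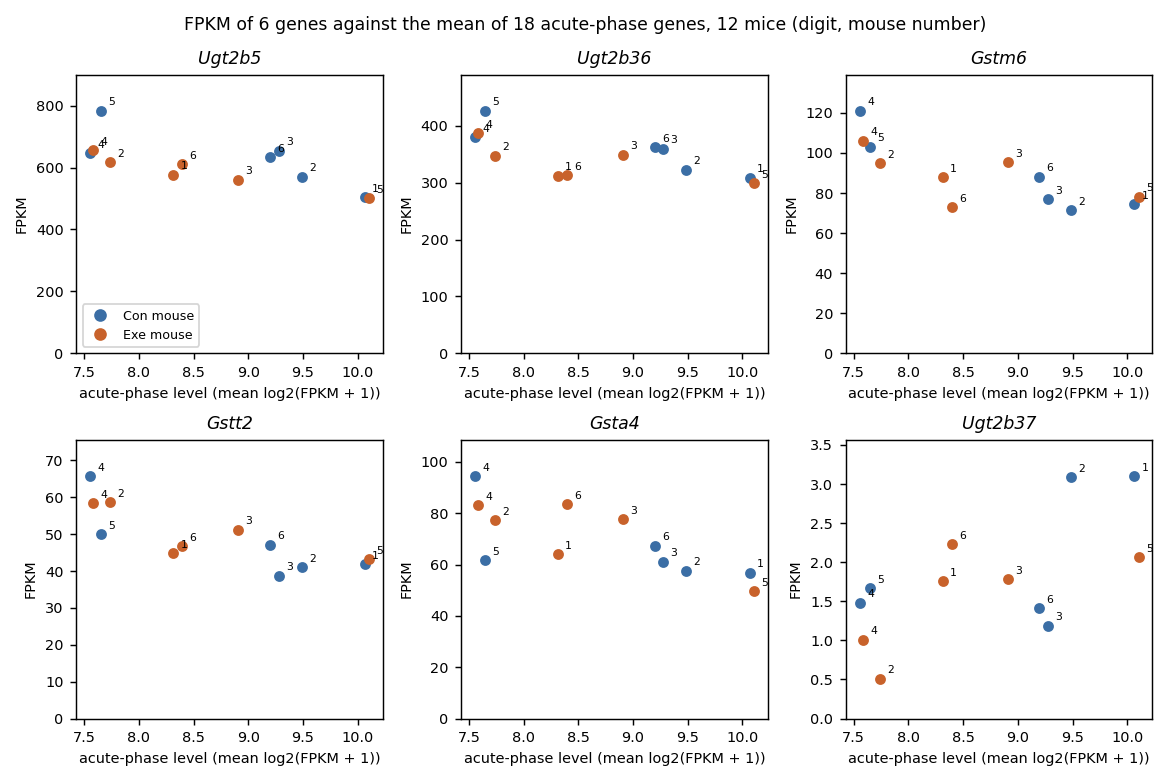
FPKM of 6 genes (linear axes from 0) against the acute-phase level of the mouse, the mean log2(FPKM + 1) of 18 genes. Points are mice with their number, blue Con and orange Exe. Ugt2b5, Ugt2b36, Gstm6, Gstt2 and Gsta4 are lower towards the right, where Con 1 and Exe 5 lie, and Ugt2b37 is higher.

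Single mice held the highest or lowest value in sets of these genes. Such counts, here and in the next paragraph, were not made over all genes tested. They are therefore not shown to be particular to the conjugation genes. Exe 2 had the highest of all 12 values in 9 of the 44 genes and the lowest in 6. The 9 included Gstt1, Gstt3, Sult1a1, Ugt1a1 (267 FPKM, where the other mice had 171 to 219), Gsta2 and Mgst3. It was lowest in Gstp1, Gstp2, Ugt2b1, Ugt2b37, Sult5a1 and Ugt2b38, the last with 5.27 FPKM where the other 11 mice had 19.9 to 39.8. The summed FPKM of 10 genes known as male-biased in mouse liver was 9400 in Exe 2 and 11273 to 15609 in the other mice, and that of 10 female-biased genes was 6.56 in Exe 2 and 1.42 to 4.63 in the others. Mup20 alone was 7446 of the 9400 FPKM in Exe 2. Of the male-biased genes, 5 were at their lowest of the 12 mice in Exe 2 (Mup20, Cyp7b1, C6, Susd4 and Moxd1). Cyp2d9, Cyp4a12a, Elovl3, Slco1a1 and Hsd3b5 were lowest in other mice. Of the female-biased genes, 3 were at their highest in Exe 2, none of them over 2.16 FPKM. Cyp17a1, also female-biased, was 3.16 FPKM in Exe 2 and 4.13 in Con 1. The part of these values in the results was not tested.

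Con 4 had the highest value in 8 genes and the lowest in 1, and Con 2 had the lowest in 10 and the highest in 0. Exe 5, with the highest acute-phase level, had the lowest value in 7 genes. Gsta1 varied most, with a coefficient of variation within groups of 68.7%, and ran from 2.56 to 12.2 FPKM in Con mice and from 2.58 to 15.6 in Exe mice. The median coefficient over the 44 genes was 15.2%, beside 11.3% over all genes tested.

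Sult1c2 and Ugt1a7c were high in the same pair of mice. Sult1c2 was 9.0 FPKM in Con 6 and 5.02 in Exe 4, and between 1.75 and 2.73 in the other 10. Ugt1a7c, below the filter, was 2.85 in Con 6 and 0.94 in Exe 4, and at most 0.25 in the others. Keratin 19 (Krt19) and Muc1, from a list of 10 markers of bile duct and gallbladder epithelium, were 18.1 and 11.2 FPKM in Con 6 and 5.5 and 4.02 in Exe 4, and at most 1.61 and 1.01 in the others. These 2 were chosen after their values were seen, and the list did not move as one. Krt7 and Tff2 were also highest in Con 6, as was Epcam, whose value in Exe 4 (1.29) was below that in Con 2 (1.34), while Spp1 and Sox9 were highest in Exe 5, Anxa4 in Con 3, Krt23 in Exe 2 and Cftr in Con 2 and Exe 5. The list summed to 52.0 to 110.4 FPKM in the Con group and to 50.1 to 101 in the Exe group, with Con 6 the highest. Exe 4 had 69.7, below Con 1, Con 2, Con 3 and Exe 5. Cftr stayed below 0.1 in every mouse. The part of these markers in Sult1c2 and Ugt1a7c was not tested.

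**Figure D5:**
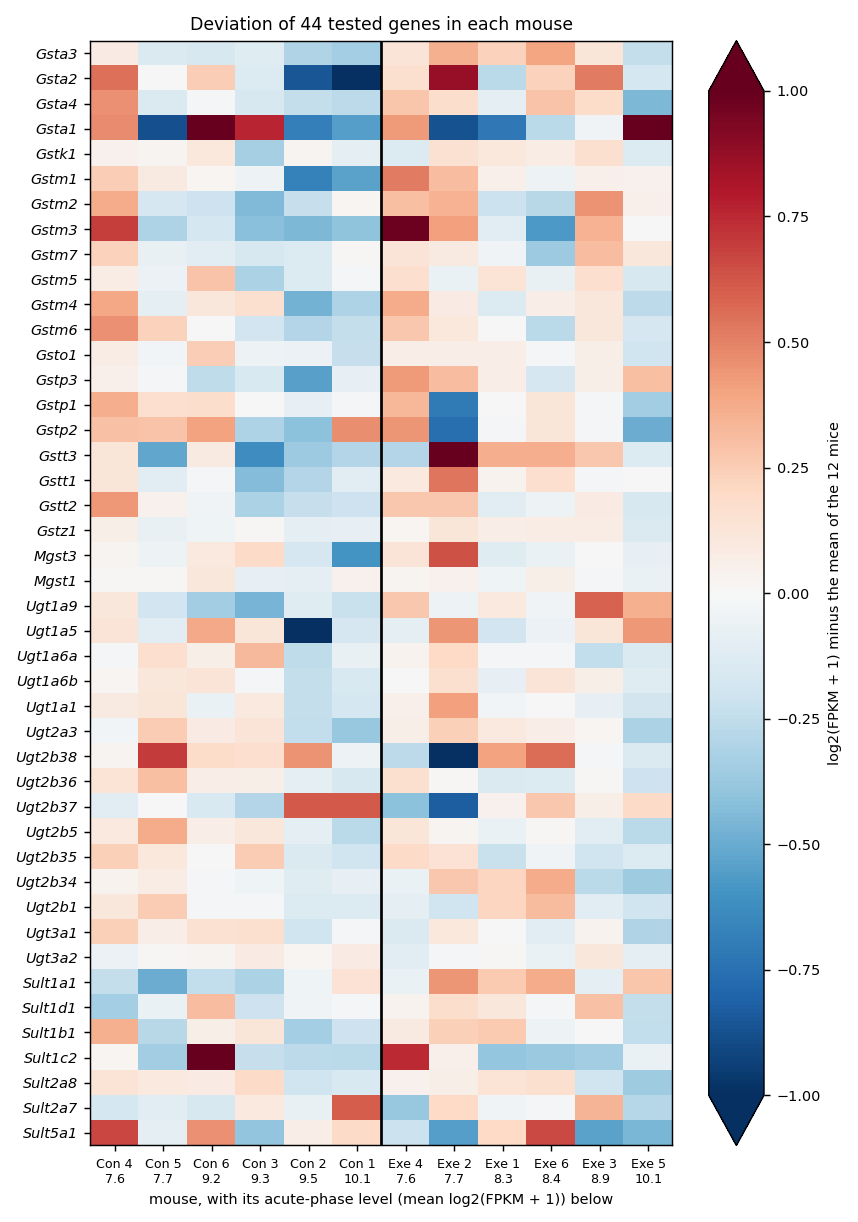
Deviation of log2(FPKM + 1) from the mean of the 12 mice for the 44 tested genes (rows, by class) in each mouse (columns, Con left and Exe right, ordered by acute-phase level, which is printed below). Red is above and blue below the mean, and colours end at a difference of 1. The columns of Exe 2, Con 4, Con 2 and Exe 5 and the Sult1c2 cells of Con 6 and Exe 4 show the values described.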

How the data were processed

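RNA-seq was done on livers of 12 mice, 1 library each, 6 in the Con and 6 in the Exe group. The authors aligned clean reads to GRCm39 with HISAT and deposited FPKM per gene. The submitters' processing notes also name Bowtie2 and mm10 with no role, and the tool and annotation behind the FPKM are not given in the sources used here. The authors compared groups with DESeq, which needs counts. FPKM are not counts, so limma 3.58.1 in R 4.3.3 was used here (lmFit, eBayes with trend, group as the only term, pseudocount 1, genes with at least 1 FPKM in at least 6 of 12 mice, Benjamini-Hochberg over 10241 genes), with a test on simulated data. Other steps used Python 3.11.15, scipy 1.17.1, pandas 2.3.3, numpy 2.4.6 and matplotlib 3.10.9. Correlations were tested with 100000 permutations. With 1 value per gene and mouse, errors are those between mice.

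The genes and lists were chosen with earlier results of these data known. Named were the 3 highest genes of Gst, Mgst, Ugt and Sult, the 10 with the smallest p for exercise, the 5 with the smallest p in each direction of the acute-phase term, the 3 most variable, and the gene with the smallest p of each pathway list. Others were named after their values were seen. Of 59 genes, all matched the RefSeq table of GRCm38.p6, used for names, gene order and the sequences of 51 genes. Its build is not that of the alignment, and no coordinate was converted. Alternatives were quantile normalization, median-of-ratios scaling, no filter, a stricter filter at 5 FPKM, a pseudocount of 0.1, robust moderation, an acute-phase covariate, the replicate number as a block, and each mouse left out in turn.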

Additional observations from a re-analysis of the deposited data

Results flagged for a closer look

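In 88 sets of 6 mice (44 genes in each group), the gap of the outermost mouse to the next was divided by the range. This ratio passed Dixon's critical value at 95% in 9 sets. For normally spread values chance gives about 1 in 20, or 4.4. FPKM need not be normal, and no share over all genes was computed, so the 9 are not shown to be an excess. The mice far from the others of their group among the genes named by rule were Exe 2 for Gstt1 (370.91 FPKM) and Mgst3 (13.8 FPKM), Con 4 for Gsta4 (94.4 FPKM), Con 6 and Exe 4 for Sult1c2 (9.0 and 5.02 FPKM), and Con 1 for Sult2a7 (2.35 FPKM). Exe 2 held 3 of the 9. Of the pathway genes, Slc35b1 in Con 3 (34.06 FPKM) and As3mt in Exe 4 (17.58 FPKM) were each the lowest mouse of their group, far below the next. The cause of each was not tested.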

How the results depend on the processing

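The count of conjugation genes past an adjusted p of 0.05 for exercise was 0 in all 21 alternatives, and their median log2 difference was between 0.01 and 0.09. At an unadjusted p the count was 5 (without Con 3) to 10 (without Con 4) with each mouse left out. The replicate numbers did not pair the mice (correlations of same-numbered deviations from -0.478 to 0.165, above 0.1 in 1 of 6 pairs, and 1 of 6 best with its own number). With the replicate number as a block, 7 genes were past an unadjusted p, all higher, and 0 past an adjusted p. Shares over all genes are not given beside these unadjusted counts. For the acute-phase term, the count of conjugation genes past an adjusted p was 1 in place of 0 under the stricter filter (Ugt2b5). This count was also 1 without the group term (Gstt2), and 0 to 1 with each mouse left out. The gene was Ugt2b5 without Con 3 or Con 4, Gsta4 without Con 5 and Gstm6 without Exe 6.

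The pathway genes named by rule were not followed one by one over the alternatives. Of 543 values for the tested Gst, Mgst, Ugt and Sult genes named by rule, 513 kept their direction, and none passed an adjusted p of 0.05. The other 30, in 7 genes with differences near 0, changed sign. Sides of the unadjusted 0.05 did change. Gstt1 was past it in 20 of the 21 alternatives. Ugt3a1, not past it in the main fit, was past it in 3, and Gsta2, Gstm1, Gstm2, Ugt2b5 and Ugt2b36 in 1 each. With the acute-phase covariate Gsta1 went from -0.04 to 0.057, Gstm6 from 0.02 to -0.0592 and Mgst1 from 0.0019 to -0.00574. Gstm6 was -0.0334 under quantile normalization, Mgst1 -0.0124 under median-of-ratios scaling, and Sult2a7 went from -0.06 to 0.11 without Con 1 and Exe 5. With each mouse left out, Gsta1 was between -0.32 and 0.15, Gstm6 between -0.0423 and 0.11, Mgst1 between -0.0182 and 0.0243, Sult1c2 between -0.29 and 0.16 (above 0 without Con 6), Sult2a7 between -0.13 and 0.0563, Sult2a8 between -0.0956 and 0.0154, and Ugt2b1 between -0.0871 and 0.0274. The causes were not tested. Without read counts, the depth behind low genes is unknown, and the 15 genes under the filter were not tested.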
